A study of Mus musculus with 8 samples.

Results

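The genes described here encode the nuclear part of the mitochondrial respiratory chain in the mouse heart. Members were protein-coding genes chosen by symbol alone, namely all Nduf and Uqcr genes, Sdha to Sdhd, Cyc1, the Cox4 to Cox8 families and the Atp5 genes. There were 90 of them among 14578 genes, carried by 307 of 33027 annotated transcripts. They comprised 36 subunits of complex I, 4 of complex II, 9 of complex III, 16 of complex IV and 15 of complex V (ATP synthase), and 10 genes grouped as assembly factors, with Ndufa4 and Ndufa4l2 counted in complex IV. All but Atp5g2 passed the filter on low values, which asked for a linear value of 1 or more in 2 or more libraries, so 89 were tested. Atp5g2, a copy of the ring subunit c, lay between 0.30 and 0.96 on the log2 scale in the 8 libraries.

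RNA of the left ventricle was compared between 3 genotypes on a C57 background, all 6 months old. The wild-type (WT) group had 2 libraries. The mdx group had 3, from mice that lack the muscle membrane protein dystrophin. The mdx sln+/- group had 3, from mdx mice with 1 disrupted copy of the gene for sarcolipin, an inhibitor of the calcium pump SERCA. The mdx sln+/- animals thus share the dystrophin defect with the mdx animals, and the labels list no sln+/- group with intact dystrophin. Neither allele is limited to heart muscle. Whether each library is a separate animal is not given in the labels, so p-values here cover only the spread among these samples, which may be technical.

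Complex I takes electrons from NADH and complex II takes them from succinate, and both pass them to coenzyme Q. Complex III hands them through cytochrome c to complex IV, which reduces oxygen, and the proton gradient built on the way drives ATP synthase. The heart depends on this pathway for most of its ATP, and its myocytes are packed with mitochondria. Most subunits are nuclear genes; a few core subunits come from mitochondrial DNA and are not members here.

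Levels are log2(value + 1), where the value is the deposited normalized abundance summed over a gene's transcripts. Whether it is scaled by transcript length is not given, so levels are compared between libraries and not between genes. Differences are log2 differences on that scale, with the standard error after ±, from a limma fit to all 8 libraries. A gene rose or fell where the Benjamini-Hochberg adjusted p of limma over 13783 genes was under 0.05. The table holds no read counts, so depth cannot be given. Each library has an r1 and an r2 column whose meaning is not given, and they were averaged to 1 value. Dmd, the mutated gene, was at 6.60 and 6.98 in WT and between 4.09 and 4.32 in the 6 other libraries, a fall of 5.70-fold in mdx (limma, adjusted p = 0.000227). Sln itself was not analysed here. None of the 12 markers of ventricular cardiomyocytes passed the test, and their summed linear level was 63043 to 64236 in WT, 63067 to 69026 in mdx and 65228 to 69178 in mdx sln+/-. Of the macrophage markers 5 of 10 rose in mdx, and of the fibroblast markers 2 of 9, where 8.15% of all genes rose. The summed macrophage level was 196 to 203 in WT, 273 to 345 in mdx and 280 to 324 in mdx sln+/-, and that of fibroblasts 743 to 897, 960 to 1284 and 1002 to 1135. In such bulk RNA, fewer cells of a type and less RNA per cell cannot be told apart, and the part of these cells in the results below was not tested.

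In mdx against WT, 5 of the 89 tested genes rose and 1 fell. The genes that rose were Ndufs6 and Ndufb7 of complex I, Uqcr10 of complex III, Ndufa4l2, which is related to a complex IV subunit, and the assembly factor Ndufaf8. Uqcrh of complex III was the gene that fell, in the averaged values and the r1 columns but not in the r2 columns. Over all genes 15.1% passed this test, 8.15% as higher and 6.94% as lower, against 6.74% of the respiratory chain genes. The median difference of the 89 was 0.03, beside 0.02 for all genes tested, and 55 of the 89 were above 0. Differences were small: 74 of 89 (83.1%) lay within 0.2 of 0, beside 53.6% of all genes. At an unadjusted p under 0.05 there were 13 higher and 3 lower, where 32.5% of all genes passed that level. In 19 genes every mdx library was above both WT libraries and in 9 below, where 51.4% of all genes were separate, 27.8% above and 23.6% below. Scaling the libraries by median ratios or upper quartiles gave 5 higher and 3 lower calls in either case. Scaling them to equal library sums left 1 call, Ndufaf1 as lower, where 9.1% of all genes were called. Leaving out WT 2 or mdx sln+/- 1 left 0 calls among the 89, and leaving out any other library left 2 to 4. The median was -0.01 without mdx 3 and 0.09 without mdx 1, so the list as a whole had no stable direction. Except for library-sum scaling, the share of all genes called under these alternatives is not given. The other counts thus do not show whether a change was particular to the respiratory chain.

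Against WT, 12 of the 89 rose in mdx sln+/- and 0 fell. The genes were Ndufs8, Ndufs6, Ndufb7, Ndufa2, Ndufa5 and Ndufa12 of complex I, Uqcr10 and Uqcr11 of complex III, Ndufa4l2, Atp5g1 and Atp5k of complex V, and Ndufaf8. The background was 15.9% of all genes, 9.41% as higher and 6.5% as lower. At 13.5% called, the respiratory chain genes lay close to it. Their median difference was 0.13, beside 0.05 for all genes, and 77 of 89 were above 0. At an unadjusted p under 0.05 there were 26 higher and 3 lower, where 33.7% of all genes passed. In 52 genes every mdx sln+/- library was above both WT libraries and in 4 below, where 59.8% of all genes were separate, 36.4% above and 23.5% below. Median-ratio scaling gave 7 higher and 2 lower calls, and upper-quartile scaling 10 and 1. Scaling to equal library sums left 0 calls, where 8.86% of all genes were called. This comparison uses the same 2 WT libraries as the one before it, so the values are given side by side and not as 2 separate findings. Leaving out mdx sln+/- 1 left 0 calls, mdx sln+/- 3 left 1, WT 2 left 2, and mdx 2 or mdx sln+/- 2 left 4. Without mdx 1 there were 20. In the fit to the WT and mdx sln+/- libraries alone there were 24. Here too the share of all genes is given only for library-sum scaling. The other counts cannot be set against all genes.

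Between mdx sln+/- and mdx, 0 of the 89 passed limma's adjusted threshold, as did 0 of 13783 genes (0% called), and the smallest adjusted p of a respiratory chain gene was 0.578. At an unadjusted p under 0.05 there were 6 of the 89, all higher in mdx sln+/-, where 8.6% of all genes passed that level. These were Ndufa1 and Ndufa3 of complex I, Uqcr11, and Cox6c, Cox7a2 and Ndufa4 of complex IV, with differences of 0.15 to 0.26. Of the 89, 81 lay above 0 (91%), beside 60.3% of all genes, and their median was 0.10, beside 0.03. In 33 genes every mdx sln+/- library was above every mdx library and in 0 below, where 24.8% of all genes were separate, 16.8% above and 8% below. With median-ratio scaling 73 of the 89 lay above 0 and their median was 0.06. With library-sum scaling the values were 67 and 0.04, beside a median of -0.02 for all genes. The 95% intervals of all 89 differences lay within 0.5 of 0.

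The position of the mdx libraries within their group depended on the scaling. On the deposited scale mdx 1 was the lowest mdx library in 67 of the 89 genes (75.3%), beside 44.2% of all genes, and mdx 3 was the highest in 64. With library-sum scaling the order turned: mdx 3 was the lowest in 66 of 89, beside 68.4% of all genes, and mdx 1 the highest in 52. On the deposited scale the median difference from the WT mean was -0.03 in mdx 1, 0.04 in mdx 2 and 0.10 in mdx 3, and 0.13, 0.11 and 0.14 in the mdx sln+/- libraries. With library-sum scaling these medians were 0.11, 0.07 and -0.01 in mdx and 0.13, 0.08 and 0.07 in mdx sln+/-. Without mdx 1 the median difference between mdx sln+/- and mdx was 0.06, and 77 of the 89 lay above 0. WT 2 was the lower WT library in 72 of 89, and in 26 with library-sum scaling. Summed over all 90 genes, the linear level was 33402 and 31327 in WT, 31097, 33609 and 34396 in mdx, and 35507, 34586 and 35680 in mdx sln+/-. The mdx range enclosed the WT range, and all mdx sln+/- libraries lay above both. As a share of each library's sum, the same 90 genes made up 3.72% and 3.81% in WT, 3.99%, 3.99% and 3.72% in mdx, and 4.12%, 3.93% and 3.94% in mdx sln+/-, so on that scale the mdx and mdx sln+/- ranges overlapped. Library sums ran from 780262 to 924253. Markers of other cells also differed among these libraries on the deposited scale. The median difference of the macrophage markers from the WT mean was 0.83 in mdx 1, 0.56 in mdx 2 and 0.47 in mdx 3, and that of the fibroblast markers 0.66, 0.44 and 0.28. The summed level of the 5 blood markers was 904 in mdx 3 and 284 to 542 in the 7 other libraries. The part of these cells in the order of the mdx libraries was not tested.

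**Figure D1:**
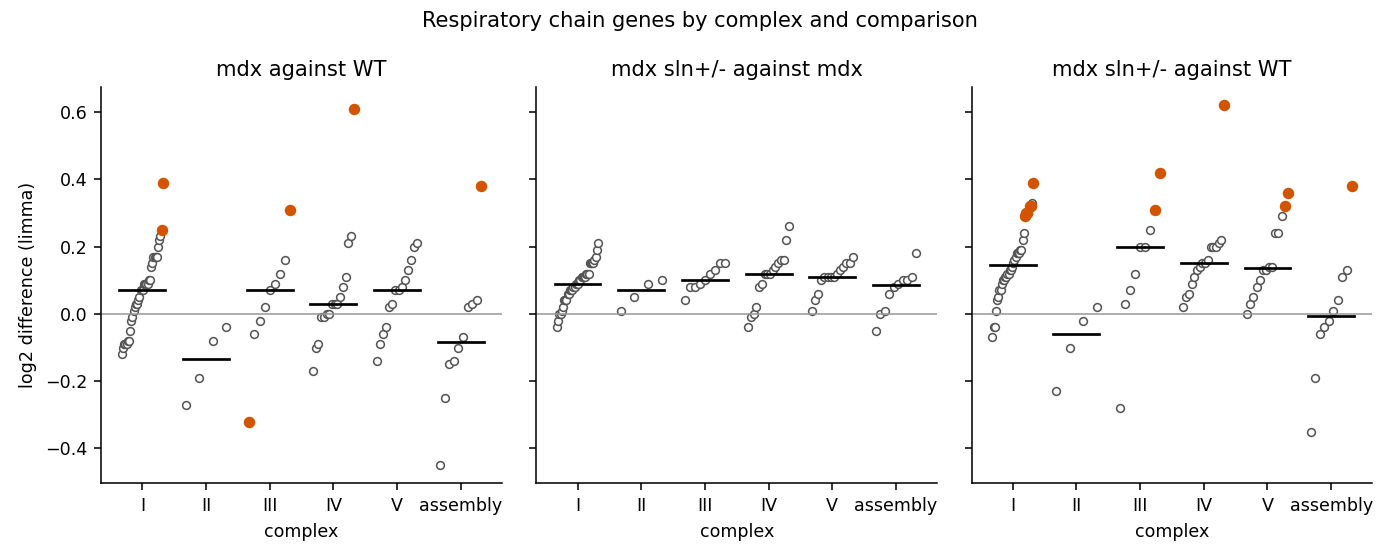
Log2 difference (limma) of each of the 89 tested genes by complex (x axis), in a panel for each of the 3 comparisons; filled orange points passed the adjusted threshold, open points did not, and bars are medians. Orange points are 6, 0 and 12 in number from left to right, and in the middle panel 81 of 89 points lie above 0.

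**Figure D2:**
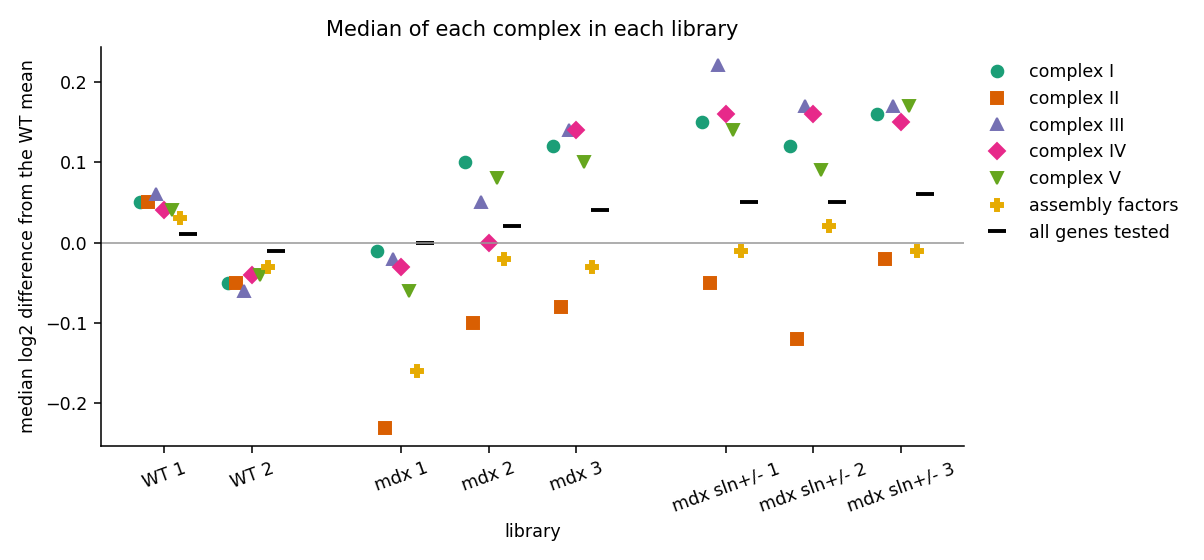
Median log2 difference from the WT mean (y axis) over the members of each complex, in each library (x axis), with the median of all genes tested as a black bar. Complex II lies below 0 in all 6 mdx and mdx sln+/- libraries, and mdx 1 has the lowest complex II and assembly factor medians.

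Transcript length went with the differences, among the members least in mdx against WT. Over the 89 genes, Spearman's rho between abundance-weighted transcript length and the difference was -0.26 in mdx against WT, -0.33 in mdx sln+/- against mdx and -0.42 in mdx sln+/- against WT. Over all genes with a length these were -0.13, -0.13 and -0.19. For the 79 tested subunits of complexes I to V, without the assembly genes, they were -0.15, -0.40 and -0.35. In mdx against WT the subunits thus lay close to all genes. Genes are not independent replicates, and all share the same libraries and normalization. Respiratory chain transcripts are short, with a median length of 681 bases beside 2617 for all genes. The 1033 genes no longer than that median had a median difference of 0.14 in mdx sln+/- against WT, and the 12743 longer genes had 0.04. These values were 0.08 and 0.03 in mdx sln+/- against mdx, and 0.07 and 0.01 in mdx against WT. The part of length in the shift of the respiratory chain genes was not tested.

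Promoters were read for the 71 of 90 members that matched RefSeq by symbol, over 250 bases before and 50 after the annotated start (GRCm38.p6). The site of nuclear respiratory factor 1 (NRF1), searched as GCATGCGC on both strands, was in 15.5% of the members' promoters and in 5.44% of those of all 9260 tested protein-coding genes with a promoter. The YY1 letters AAGATGGC were in 14.1% and 4.85%, the ETS letters CCGGAAG, which the factor GABP binds, in 25.4% and 18.8%, and the estrogen-related receptor (ERR) letters TCAAGGTCA in 2.82% and 0.238%. The E-box CAGCTG was in 8.45% and 15%, the TATA letters TATAAA in 8.45% and 7.16%, and the MEF2 letters CTAAAAATA in 0 of the 71. A match is only a run of letters, not a bound site.

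The following sequences (RefSeq, GRCm38.p6) show how these letters sit in promoters of genes that changed or that form an isoform pair, from 250 bases before the start to 30 from it, 5′ to 3′, with matches in capitals. Those of Atp5k, Uqcr11 and Ndufaf8 belong to genes that rose in mdx sln+/-, Uqcrh to the gene that fell in mdx, and Cox8a and Cox8b to the general and the muscle isoform. They are examples and do not stand for the genes that rose. Of 10 promoters of members that rose in a comparison with WT, 2 held NRF1 letters (20%), 5 ETS (50%) and 2 YY1 (20%). In the 61 promoters of members that did not rise, the shares were 14.8%, 21.3% and 13.1%. These differences were not tested. In Atp5k 2 overlapping NRF1 matches make 1 run of capitals, followed by an ETS match; no other printed matches overlap.
Atp5k promoter (chr5:108434370-108434649, minus strand): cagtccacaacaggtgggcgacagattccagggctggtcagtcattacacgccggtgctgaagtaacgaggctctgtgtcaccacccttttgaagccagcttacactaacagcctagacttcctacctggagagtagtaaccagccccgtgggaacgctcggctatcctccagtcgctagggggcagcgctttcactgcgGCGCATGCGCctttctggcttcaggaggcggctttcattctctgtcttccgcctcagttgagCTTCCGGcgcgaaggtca
Uqcr11 promoter (chr10:80406792-80407071, minus strand): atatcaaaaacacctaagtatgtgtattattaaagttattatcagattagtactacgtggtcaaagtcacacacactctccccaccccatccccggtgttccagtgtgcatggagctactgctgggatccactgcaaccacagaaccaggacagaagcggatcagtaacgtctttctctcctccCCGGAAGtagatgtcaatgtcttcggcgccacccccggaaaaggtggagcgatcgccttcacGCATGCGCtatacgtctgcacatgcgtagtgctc
Ndufaf8 promoter (chr11:120098684-120098963, plus strand): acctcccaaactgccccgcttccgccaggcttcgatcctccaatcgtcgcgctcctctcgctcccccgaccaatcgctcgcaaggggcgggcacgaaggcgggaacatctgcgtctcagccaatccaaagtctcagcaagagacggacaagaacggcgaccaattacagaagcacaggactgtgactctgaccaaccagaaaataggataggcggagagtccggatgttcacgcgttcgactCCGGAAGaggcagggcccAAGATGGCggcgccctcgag
Uqcrh promoter (chr4:116075041-116075320, minus strand): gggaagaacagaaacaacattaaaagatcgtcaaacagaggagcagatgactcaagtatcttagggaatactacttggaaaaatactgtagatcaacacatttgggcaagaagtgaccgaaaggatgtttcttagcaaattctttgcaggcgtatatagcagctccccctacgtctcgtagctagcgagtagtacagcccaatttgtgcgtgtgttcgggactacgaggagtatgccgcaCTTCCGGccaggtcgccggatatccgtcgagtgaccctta
Cox8a promoter (chr19:7217587-7217866, minus strand): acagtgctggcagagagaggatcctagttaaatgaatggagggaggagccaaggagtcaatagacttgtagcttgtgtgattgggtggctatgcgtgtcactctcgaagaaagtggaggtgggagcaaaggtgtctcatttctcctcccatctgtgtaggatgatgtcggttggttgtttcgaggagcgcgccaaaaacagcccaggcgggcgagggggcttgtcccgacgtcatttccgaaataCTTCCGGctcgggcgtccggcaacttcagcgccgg
Cox8b promoter (chr7:140900417-140900696, minus strand): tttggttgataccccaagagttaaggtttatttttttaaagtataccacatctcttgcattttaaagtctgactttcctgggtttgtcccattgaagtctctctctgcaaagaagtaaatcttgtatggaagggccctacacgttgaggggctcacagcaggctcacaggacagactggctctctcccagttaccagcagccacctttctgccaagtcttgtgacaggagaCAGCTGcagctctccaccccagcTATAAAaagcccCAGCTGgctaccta
Uqcr11 holds an ETS match and an NRF1 match, the latter across the start itself. Ndufaf8 holds an ETS match just before the start and a YY1 match just after it. Uqcrh, which fell, holds an ETS match at nearly the same place as Ndufaf8. Cox8b holds 2 E-boxes and TATA letters and neither NRF1 nor ETS letters, and Cox8a has an ETS match. The promoter of Uqcr10 held none of the 7 motifs searched. The RefSeq start lay 49 bases from that of the most abundant measured transcript for Atp5k, and at most 10 bases away for the other 5.

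Complex I is the largest of the complexes, with 7 nuclear core subunits, which hold its redox centres, and 29 accessory subunits here. Its median difference was 0.07 in mdx against WT, 0.09 in mdx sln+/- against mdx and 0.15 in mdx sln+/- against WT. Among the core subunits, Ndufs8, which holds iron-sulfur clusters near the coenzyme Q site, was at 7.22 and 7.11 in WT, 7.29, 7.36 and 7.42 in mdx, and 7.47, 7.46 and 7.46 in mdx sln+/-. All 3 groups were separate, with WT lowest. Ndufs8 rose in mdx sln+/- against WT by 0.30 ± 0.07 (limma, adjusted p = 0.0329) and differed by 0.20 ± 0.07 in mdx (adjusted p = 0.109). The other 6 core subunits did not pass. Ndufs1, the largest subunit of the matrix arm, had the lowest log2 difference among the tested nuclear-encoded subunits of complex I in mdx against WT, at -0.12 ± 0.08, and differed by -0.04 ± 0.08 in mdx sln+/- against WT.

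Ndufs6, a zinc-binding accessory subunit added late in assembly of the matrix arm, had the largest rise of complex I. It lies on chromosome 13 from 73319838 to 73328542, minus strand (GRCm38, GENCODE M21, counted from 1, as are all positions here). Its level was 6.59 and 6.56 in WT, 7.04, 6.90 and 6.93 in mdx, and 6.97, 7.00 and 6.89 in mdx sln+/-, with no overlap between WT and either other group. The difference was 0.39 ± 0.07 in each comparison with WT (limma, adjusted p = 0.0187 in mdx and 0.0178 in mdx sln+/-), or 1.31-fold. The r1 and r2 columns disagreed for this gene. They gave 6.55 and 7.72 in mdx sln+/- 1, and 6.56 and 6.57 in WT 2. With the r1 or the r2 columns alone the difference in mdx was 0.34 or 0.45 and did not pass (limma, adjusted p = 0.244 and 0.305). In mdx sln+/- it was 0.27 or 0.64 and did not pass either (adjusted p = 0.327 and 0.158). The disagreement sat mainly in the coding transcript Ndufs6-203, which was at 4.86 (r1) and 7.31 (r2) in mdx sln+/- 1. The coding transcript Ndufs6-201 rose by 0.62 ± 0.10 in mdx (adjusted p = 0.0150 over transcripts). Mrpl36, a mitochondrial ribosome gene that overlaps Ndufs6 on the other strand, differed by -0.26 ± 0.09 in mdx and did not pass (adjusted p = 0.0878). Whether reads were counted by strand is not given.

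Ndufb7, an accessory subunit of the membrane arm that faces the intermembrane space (chromosome 8, 83566671 to 83571626, plus strand), was at 7.63 and 7.53 in WT, 7.83, 7.80 and 7.85 in mdx, and 7.89, 7.92 and 7.87 in mdx sln+/-. Its r1 and r2 values lay within 0.04 of each other in every library. It rose by 0.25 ± 0.07 in mdx (limma, adjusted p = 0.0452) and by 0.32 ± 0.07 in mdx sln+/- (adjusted p = 0.0234). The rise in mdx lay at the edge of the threshold and was lost in 16 of 23 alternative fits, while its size stayed between 0.20 and 0.30.

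The accessory subunits Ndufa2, Ndufa5 and Ndufa12 of the matrix arm rose in mdx sln+/- against WT. Their differences in mdx against WT, and those between the mdx groups, did not pass. Ndufa2 was at 7.03 and 6.93 in WT, 7.21, 7.18 and 7.24 in mdx, and 7.29, 7.31 and 7.24 in mdx sln+/-. It rose by 0.30 ± 0.07 in mdx sln+/- (limma, adjusted p = 0.0281), and its difference in mdx was 0.23 ± 0.07 (adjusted p = 0.0608). Tmco6, which overlaps Ndufa2 on the other strand, differed by -0.10 ± 0.17 in mdx. Ndufa5 (chromosome 6, 24518666 to 24528013, minus strand) was at 7.26 and 7.20 in WT, 7.29, 7.38 and 7.52 in mdx, and 7.56, 7.56 and 7.51 in mdx sln+/-. It rose by 0.32 ± 0.09 (adjusted p = 0.0464). With coding transcripts alone that difference was 0.15 (adjusted p = 0.274), and the transcript that passed was Ndufa5-204, which is annotated as a processed transcript and rose by 0.43 ± 0.10 (adjusted p = 0.0355 over transcripts). Ndufa12 (chromosome 10, 94198720 to 94221443, plus strand) was at 6.58 and 6.67 in WT, 6.73, 6.80 and 6.85 in mdx, and 6.96, 6.91 and 6.89 in mdx sln+/-, a rise of 0.29 ± 0.07 (adjusted p = 0.0363). It was 0.48 with the r1 columns and 0.10 with the r2 columns (adjusted p = 0.0133 and 0.407). The 24 accessory subunits without a call in either comparison with WT included Ndufb3, the lowest at -0.07 in mdx sln+/- against WT, and Ndufs5, the highest of them at 0.33 ± 0.14.

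Complex II, or succinate dehydrogenase, also works in the citric acid cycle and is encoded wholly in the nucleus. None of its 4 genes passed in any comparison, but all 4 were below 0 in mdx against WT, from -0.04 (Sdhd) to -0.27 (Sdhc), with a median of -0.13. Sdhc, a membrane anchor (chromosome 1, 171127165 to 171150603, minus strand), was at 8.67 and 8.58 in WT, 8.26, 8.37 and 8.41 in mdx, and 8.40, 8.37 and 8.42 in mdx sln+/-. WT lay above all 6 other libraries. The difference was -0.27 ± 0.08 in mdx (limma, adjusted p = 0.0552) and -0.23 ± 0.08 in mdx sln+/- (adjusted p = 0.0885). Sdhc passed in mdx under 5 of 23 alternative fits, among them median-ratio and upper-quartile scaling. Its short coding transcript Sdhc-203 (298 bases) fell by 0.56 ± 0.09 on the log2 scale in mdx and by 0.51 ± 0.09 in mdx sln+/- (adjusted p = 0.0132 and 0.0146 over transcripts), and its main transcript Sdhc-201 differed by -0.23 ± 0.08 in mdx (adjusted p = 0.119). Sdha, the flavoprotein, was at 10.38 and 10.05 in WT and between 9.96 and 10.15 in the others, so the 2 WT libraries were further apart than the difference of -0.19 ± 0.12 in mdx. Summed over the 4 genes, complex II was at 2742 and 2384 in WT, 2149, 2369 and 2390 in mdx, and 2444, 2348 and 2465 in mdx sln+/-, and the groups overlapped except that WT 1 stood above all others.

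Complex III held Uqcr10, whose calls were lost under the fewest alternative fits, and Uqcrh, the gene that fell. Uqcr10, a small membrane subunit (chromosome 11, 4701973 to 4704342, minus strand), was at 7.55 and 7.51 in WT, 7.82, 7.85 and 7.84 in mdx, and 7.98, 7.94 and 7.94 in mdx sln+/-. The 3 groups did not overlap, and r1 and r2 agreed closely in every library. It rose by 0.31 ± 0.06 in mdx (limma, adjusted p = 0.0204) and by 0.42 ± 0.06 in mdx sln+/- (adjusted p = 0.0080), or 1.24-fold and 1.34-fold. The difference between the mdx groups was 0.12 ± 0.05 and did not pass (adjusted p = 0.592). The call in mdx was lost in 4 of 23 alternative fits, with library-sum scaling, without WT 2, without mdx sln+/- 1, and without WT 2 and mdx sln+/- 3 together. Uqcr11, another small subunit (chromosome 10, 80402997 to 80406830, minus strand), was at 7.92 and 7.86 in WT, 8.06, 8.03 and 8.07 in mdx, and 8.22, 8.23 and 8.16 in mdx sln+/-. Its groups were also ordered without overlap. It rose by 0.31 ± 0.07 in mdx sln+/- (adjusted p = 0.0225), and its difference in mdx was 0.16 ± 0.07 (adjusted p = 0.140).

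Uqcrh, the hinge protein between cytochrome c1 and cytochrome c (chromosome 4, 116066965 to 116075071, minus strand), was at 7.75 and 7.86 in WT, 7.38, 7.50 and 7.57 in mdx, and 7.52, 7.50 and 7.55 in mdx sln+/-. It fell by 0.32 on the log2 scale in mdx (SE 0.08; limma, adjusted p = 0.0391), and in mdx sln+/- the difference was -0.28 ± 0.08 (adjusted p = 0.0543). The r1 and r2 columns went opposite ways. The r1 columns gave 8.13 and 8.26 in WT and 7.11, 7.38 and 7.65 in mdx. The r2 columns gave 7.40 and 7.50 in WT and 7.66, 7.63 and 7.49 in mdx. With r1 alone the difference was -0.82 (adjusted p = 0.0236), and with r2 alone it was 0.15 (adjusted p = 0.392), so no direction holds for the gene as a whole. Its main coding transcript Uqcrh-202 differed by -0.27 ± 0.10 in mdx (adjusted p = 0.116 over transcripts).

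Of the 3 non-coding transcripts of Uqcrh, Uqcrh-204 and Uqcrh-203 were lower than WT in both columns, and Uqcrh-205 did not pass (0.13 ± 0.11 in mdx). Uqcrh-204, annotated as a processed transcript, was at 4.55 and 4.41 in WT, 3.16, 2.94 and 2.88 in mdx, and 2.54, 2.67 and 2.64 in mdx sln+/-. It fell by 1.49 on the log2 scale in mdx (SE 0.13, adjusted p = 0.00287) and by 1.87 in mdx sln+/- (SE 0.13, adjusted p = 0.00102). In the r1 columns it was at 5.26 and 5.32 in WT and at most 3.06 in the others, and in the r2 columns at 3.84 and 3.51 in WT and at most 3.47, a much narrower gap. Uqcrh-203, with a retained intron, was at 1.10 and 1.06 in WT and between 0.45 and 0.50 in the 6 others (limma, adjusted p = 0.0245 in mdx). Gm12854, which overlaps Uqcrh on the other strand, differed by 0.26 ± 0.13 in mdx (adjusted p = 0.207). The processed copies Uqcrh-ps1 and Uqcrh-ps2 differed by 0.05 ± 0.07 and 0.00 ± 0.10. Reads of such copies can be assigned to the parent gene, so the gene's value is uncertain.

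**Figure D3:**
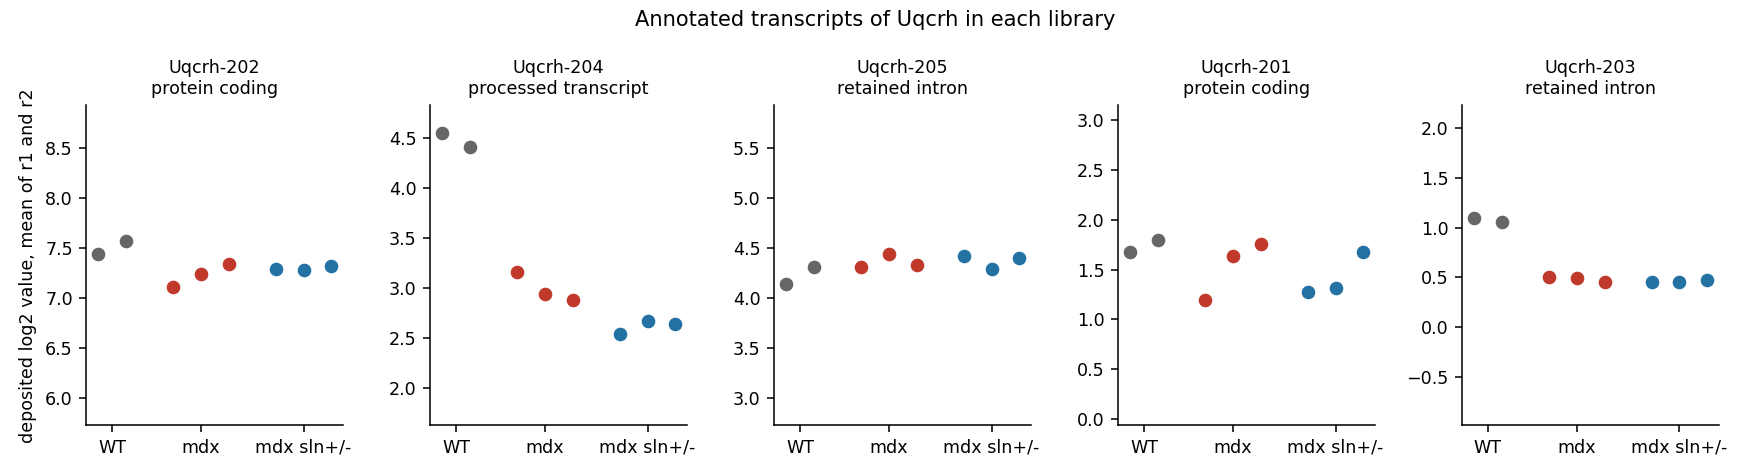
Deposited log2 value, as the mean of the r1 and r2 columns (y axis), of the 5 measured transcripts of Uqcrh in each library, coloured by genotype (x axis); every panel spans the same height on its own range. In these means Uqcrh-202, Uqcrh-203 and Uqcrh-204 separate WT from all 6 other libraries, though Uqcrh-202 goes opposite ways in r1 and r2, and Uqcrh-201 and Uqcrh-205 do not separate them.

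The remaining 6 genes of complex III did not pass. They include the core subunits Cyc1, the iron-sulfur protein Uqcrfs1, and Uqcrc1 and Uqcrc2. They ranged from -0.06 (Uqcrfs1) to 0.12 (Uqcrc1) in mdx against WT and from 0.03 (Uqcrfs1) to 0.25 (Uqcrb) in mdx sln+/- against WT.

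Complex IV, cytochrome c oxidase, has nuclear subunits that exist as tissue isoforms, with Cox6a2, Cox7a1 and Cox8b as the forms of heart and skeletal muscle in the mouse. Of its 16 genes only Ndufa4l2 passed, and the median was 0.03 in mdx against WT and 0.15 in mdx sln+/- against WT. Ndufa4l2 is a relative of the complex IV subunit Ndufa4, is induced by low oxygen in many cells, and is known as a marker of pericytes in heart and brain. It lies on chromosome 10 from 127514967 to 127517154, plus strand. Its level was low, at 3.12 and 2.91 in WT, 3.85, 3.54 and 3.47 in mdx, and 3.62, 3.72 and 3.56 in mdx sln+/-. WT was separate from all others. It rose by 0.61 ± 0.14 in mdx (limma, adjusted p = 0.0321), or 1.52-fold, and by 0.62 ± 0.14 in mdx sln+/- (adjusted p = 0.0295). Of the 6 markers of smooth muscle and pericytes, Notch3 rose by 0.57 ± 0.15 in mdx (adjusted p = 0.0425), and Rgs5 differed by 0.65 ± 0.18 (adjusted p = 0.0529). The other 4 did not pass. Pdgfrb differed by 0.28 ± 0.18, Myh11 by 0.03 ± 0.46, Cnn1 by -0.27 ± 0.24 and Tagln by -0.28 ± 0.47 in mdx. In mdx sln+/- against WT none of the 6 passed limma's adjusted threshold (2 higher and 1 lower at an unadjusted p under 0.05), with 3 above and 3 below 0 and a median of -0.14. The summed level of those 6, in which Rgs5 has the largest value, was 405 to 481 in WT, 547 to 686 in mdx and 548 to 664 in mdx sln+/-, and their part in the rise of Ndufa4l2 was not tested. Shmt2, which overlaps Ndufa4l2 on the other strand, had a difference that rounds to 0.00 (SE 0.09) in mdx.

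Ndufa4 itself was at 6.91 and 6.73 in WT, 6.60, 6.69 and 6.67 in mdx, and 6.86, 6.88 and 6.99 in mdx sln+/-. It had the largest difference of all 89 genes between the mdx groups, 0.26 ± 0.07, with no overlap, but did not pass (limma, adjusted p = 0.578), and its r1 and r2 values differed by 0.32 on average. Its difference in mdx against WT was -0.17 ± 0.08 (adjusted p = 0.204) and lay between -0.38 and 0.06 over the alternative fits. The log2 ratio of Ndufa4l2 to Ndufa4 was -3.79 and -3.83 in WT, -2.75, -3.15 and -3.19 in mdx, and -3.24, -3.16 and -3.43 in mdx sln+/-, with WT below all others.

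None of the muscle isoforms passed the test. Cox6a2 was at 9.70 and 9.71 in WT, 9.98, 9.90 and 9.89 in mdx, and 9.94, 9.94 and 9.88 in mdx sln+/-, above WT in all 6, with a difference of 0.21 ± 0.08 in mdx (limma, adjusted p = 0.103). Cox6a1, the form of most other tissues, was at 5.61 and 5.82 in WT, 5.78, 5.75 and 5.71 in mdx, and 5.77, 5.74 and 5.70 in mdx sln+/-, inside the WT range throughout. The log2 ratio of Cox6a2 to Cox6a1 was 4.09 and 3.89 in WT and between 4.16 and 4.20 in the 6 others.

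Cox7a1 was at 8.34 and 8.17 in WT, 8.02, 8.25 and 8.47 in mdx, and 8.41, 8.39 and 8.38 in mdx sln+/-, and its mdx values spanned those of both other groups. Its general counterpart Cox7a2 was at 6.54 and 6.52 in WT, 6.33, 6.49 and 6.49 in mdx, and 6.60, 6.54 and 6.63 in mdx sln+/-. The ratio of Cox7a1 to Cox7a2 was 1.80 and 1.66 in WT, 1.70 to 1.98 in mdx and 1.75 to 1.84 in mdx sln+/-, and the groups overlapped. Cox8b was at 8.24 and 8.08 in WT, 8.0, 8.01 and 8.15 in mdx, and 8.22, 8.25 and 8.14 in mdx sln+/-. Cox8a, the general form, was at 6.39 and 6.49 in WT, 6.43, 6.40 and 6.50 in mdx, and 6.55, 6.60 and 6.52 in mdx sln+/-. The ratio of Cox8b to Cox8a was 1.84 and 1.59 in WT, 1.58 to 1.66 in mdx and 1.62 to 1.67 in mdx sln+/-, again with overlap.

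Cox4i1, the general form of subunit 4, was at 9.80 and 9.72 in WT, 9.82, 9.87 and 9.93 in mdx, and 9.98, 9.96 and 9.93 in mdx sln+/-, above WT in all 6, with a difference of 0.11 ± 0.08 in mdx. Cox4i2, its lung and low-oxygen form, lay between 2.37 and 2.96 with overlap of all groups and differed by 0.23 ± 0.21 in mdx. Cox6b1 was at 8.08 and 8.0 in WT, 8.07, 8.11 and 8.18 in mdx, and 8.25, 8.25 and 8.23 in mdx sln+/-. Its difference was 0.08 ± 0.07 in mdx and 0.20 ± 0.07 in mdx sln+/- against WT (limma, adjusted p = 0.0869). The isoform ratios are a description, with no test.

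**Figure D4:**
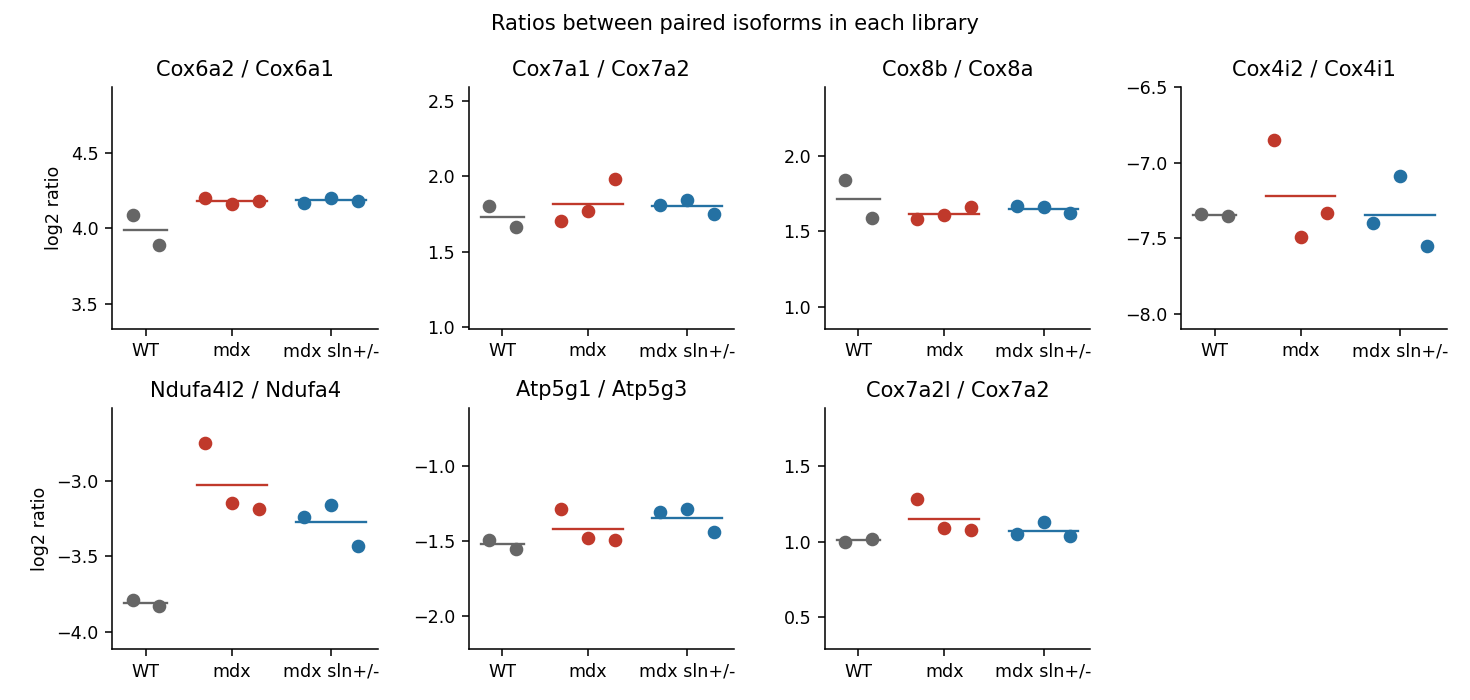
Log2 ratio between paired isoforms (y axis) in each library, coloured by genotype (x axis), with the group mean as a bar; every panel spans the same height. WT lies apart from the 6 other libraries for Cox6a2 to Cox6a1, Cox7a2l to Cox7a2 and, by the widest gap, Ndufa4l2 to Ndufa4.

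Complex V makes ATP with a catalytic head, a ring and a stalk. Of 14 tested genes 0 passed in mdx against WT and 2 rose in mdx sln+/-, both of the membrane part. Atp5g1, 1 of the genes that encode the ring subunit c (chromosome 11, 96068852 to 96075670, minus strand), was at 8.64 and 8.43 in WT, 8.72, 8.74 and 8.74 in mdx, and 8.89, 8.84 and 8.81 in mdx sln+/-. In these averages the groups were ordered without overlap, but not in the r1 columns or the r2 columns alone. Atp5g1 rose by 0.32 ± 0.08 in mdx sln+/- (limma, adjusted p = 0.0462), and its difference in mdx was 0.20 ± 0.08 (adjusted p = 0.149). With the r1 or the r2 columns alone the difference in mdx sln+/- was 0.24 or 0.39 and did not pass (adjusted p = 0.203 and 0.097). Atp5g3, which encodes the same mature protein, was at 10.13 and 9.98 in WT, 10.01, 10.22 and 10.23 in mdx, and 10.20, 10.13 and 10.26 in mdx sln+/-. Its groups overlapped, and it differed by 0.14 ± 0.11 in mdx sln+/- against WT. Atp5k, subunit e, which helps ATP synthase form dimers (chromosome 5, 108433244 to 108434448, minus strand), was at 6.90 and 6.78 in WT, 6.94, 7.02 and 7.20 in mdx, and 7.17, 7.24 and 7.20 in mdx sln+/-, with mdx 3 among the mdx sln+/- values. It rose by 0.36 ± 0.09 in mdx sln+/- (adjusted p = 0.0423). That was 0.53 with the r1 columns (adjusted p = 0.0260) and 0.20 with the r2 columns (adjusted p = 0.512). Its pseudogene copy Atp5k-ps2 differed by 0.17 ± 0.14 in mdx and by 0.30 ± 0.14 in mdx sln+/-, each against WT. Neither difference passed (limma, adjusted p = 0.435 and 0.188). As for Uqcrh, reads of such a copy can be assigned to the parent gene, and its part in the rise of Atp5k was not tested. The 5 genes of the catalytic head stayed between -0.04 (Atp5c1) and 0.16 (Atp5e) in mdx and between 0.08 (Atp5d) and 0.29 (Atp5e) in mdx sln+/-. Atp5f1, of the peripheral stalk, was the lowest of complex V, at -0.14 ± 0.11 in mdx and 0.00 ± 0.11 in mdx sln+/-.

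The 10 assembly genes hold Ndufaf1 to Ndufaf8, Atp5s and Cox7a2l, a protein that joins complexes into supercomplexes. Their median was -0.08 in mdx against WT and -0.01 in mdx sln+/- against WT, below those of complexes I, III, IV and V, a difference that was not tested. Ndufaf8, which works with Ndufaf5 on the core subunit Ndufs7 (chromosome 11, 120098928 to 120100705, plus strand), was at 3.60 and 3.79 in WT, 4.14, 4.07 and 4.01 in mdx, and 4.06, 4.07 and 4.09 in mdx sln+/-. It rose by 0.38 ± 0.09 in both (limma, adjusted p = 0.0347 in mdx and 0.0353 in mdx sln+/-). These calls were lost in 13 and 12 of 23 alternative fits, while the size stayed between 0.28 and 0.47. With coding transcripts alone Ndufaf8 differed by 0.36 and 0.32 and did not pass (limma, adjusted p = 0.0567 and 0.0744). Ndufaf1, needed for an early membrane arm intermediate, was the lowest gene of all 89 in mdx. It was at 5.29 and 5.16 in WT, 4.54, 4.87 and 4.90 in mdx, and 4.95, 4.78 and 4.90 in mdx sln+/-, all 6 below WT. The difference was -0.45 ± 0.13 in mdx (adjusted p = 0.0551) and -0.35 ± 0.13 in mdx sln+/- (adjusted p = 0.107). Cox7a2l was at 7.54 and 7.54 in WT, 7.61, 7.58 and 7.57 in mdx, and 7.65, 7.67 and 7.68 in mdx sln+/-. The groups were ordered without overlap, but by small steps that did not pass, 0.04 ± 0.06 in mdx and 0.13 ± 0.06 in mdx sln+/- against WT.

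**Figure D5:**
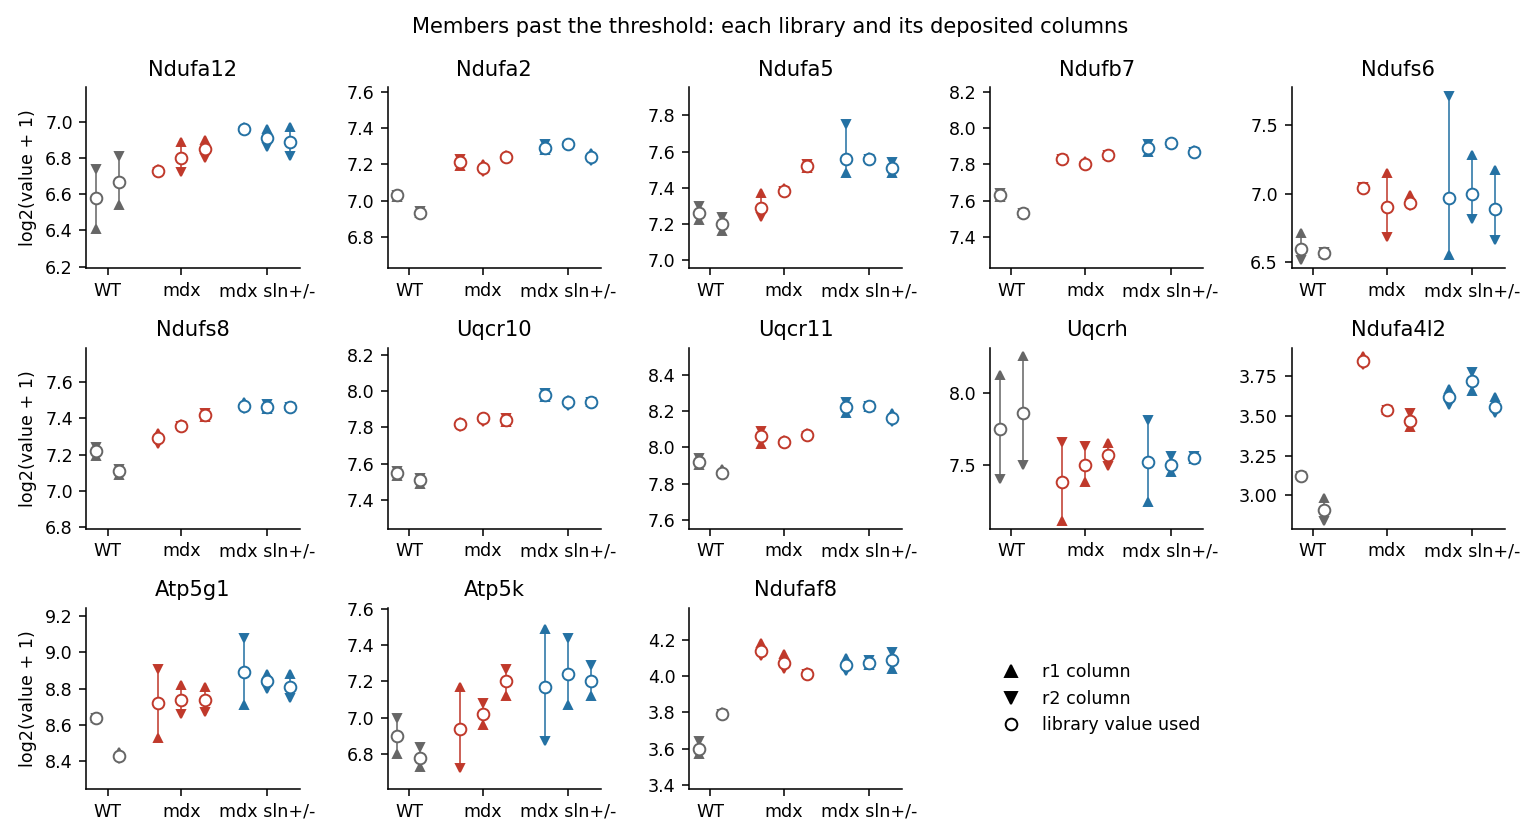
Level, log2(value + 1) (y axis), of the 13 genes that passed in a comparison with WT, in each library by genotype (x axis); circles are the library values used, and triangles its r1 and r2 columns. The columns coincide for Uqcr10, Ndufb7 and Ndufa2, and lie far apart for Uqcrh and Ndufs6.

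Across the 89 genes, 11 (12.4%) had an average r1 to r2 difference over 0.2, beside 7.4% of all genes. Cox5b had the largest, at 0.55, with 7.72 (r1) and 6.76 (r2) in mdx 1 and no call in any comparison. At the level of single transcripts, 11 of 302 tested transcripts of the members passed in mdx against WT, 5 higher and 6 lower, where 8.29% of 29021 transcripts passed, 4.23% as higher and 4.07% as lower. Of the 6 that fell, 5 were annotated as non-coding or as targets of nonsense-mediated decay. Of the 302 tested, 169 were annotated as protein coding. For mdx sln+/- against WT, 14 rose and 6 fell, where 10.1% passed, 5.39% as higher and 4.74% as lower. Among these, 10 that rose and 2 that fell were annotated as protein coding. Transcripts without a coding annotation held 16.1% to 17.1% of the members' summed level in the 8 libraries, beside 8.47% to 8.93% for all protein-coding genes.

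Genes that act on the chain from outside were read from 4 lists. Of 13 regulators of mitochondrial biogenesis, 3 fell and 0 rose in mdx (23.1% called, beside 15.1% of all genes). Ppargc1a, the coactivator PGC-1 alpha, was at 7.41 and 8.17 in WT, 6.17, 5.92 and 6.30 in mdx, and 6.32, 6.57 and 6.24 in mdx sln+/-, a fall of 1.65 on the log2 scale in mdx (SE 0.24; limma, adjusted p = 0.00802). All 6 other libraries were below both WT libraries, which were themselves far apart. Ppara, a receptor that drives fatty acid oxidation, fell by 0.98 (SE 0.14, adjusted p = 0.00786), and Nrip1, a corepressor, fell by 0.47 (SE 0.12, adjusted p = 0.0363). None of the other regulators on this list passed in mdx. Esrra differed by 0.06 ± 0.07, Gabpa by 0.04 ± 0.08 and Nrf1 by 0.41 ± 0.17 (limma, adjusted p = 0.140). Esrrb and Esrrg had means of 4.88 and 5.21 in mdx, beside 5.05 and 5.36 in WT. Tfam, from the list of mitochondrial gene expression, differed by -0.03 ± 0.11 and did not pass. In the mdx sln+/- hearts Ppargc1a, Ppara and Perm1 fell by 1.41, 1.07 and 0.36 against WT, and Gabpb1, a GABP subunit, rose by 0.32 ± 0.09 (adjusted p = 0.0496). With these, 30.8% of the 13 regulators were called, beside 15.9% of all genes. Of 15 genes of mitochondrial gene expression, Tfb2m, a transcription factor of mitochondrial DNA, fell by 0.32 (SE 0.07; limma, adjusted p = 0.0219) in mdx and 0 rose. In mdx sln+/- against WT 1 of the 15 fell and 0 rose. The share called was 6.67% in each comparison with WT, beside 15.1% of all genes in mdx and 15.9% in mdx sln+/-.

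Of 23 genes for cytochrome c, coenzyme Q synthesis and carriers, 3 fell and 0 rose in mdx. These were Coq10b (-1.09 ± 0.15), a coenzyme Q binding protein, and Coq7 (-0.40 ± 0.08) and Coq5 (-0.28 ± 0.06), enzymes of its synthesis, with limma adjusted p of 0.00748, 0.0168 and 0.0281. In mdx sln+/- against WT 4 of the 23 fell and 0 rose (17.4% called, beside 15.9% of all genes). Coq3 was 1 of those that fell (-0.29 ± 0.08, limma, adjusted p = 0.0418). Other coenzyme Q genes lay above 0 in mdx and did not pass, among them Coq8a (0.31 ± 0.15, adjusted p = 0.194) and Coq4 (0.20 ± 0.13, adjusted p = 0.329). Of 47 tested assembly factors with other names, 1 rose and 4 fell in mdx. Tmem126b, of the complex I assembly machinery, rose by 0.59 ± 0.10 (adjusted p = 0.0114), and was at 4.31 and 4.49 in WT and 4.88 to 5.09 in the 6 others. Coa4 and Higd2a, linked to complex IV, Tmem186, linked to complex I, and Ttc19, linked to complex III, fell by 0.55, 0.28, 0.44 and 0.34. Against WT, 5 of the 47 rose and 3 fell in mdx sln+/- (17% called, beside 15.9% of all genes). The share called in mdx was 13% for the 23 genes and 10.6% for the 47, under the 15.1% of all genes.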

How the data were processed

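RNA of 8 left ventricle libraries was measured by sequencing. STAR 2.6.1, Partek, limma and the build mm10 are named in the submitters' processing notes, with no order or role. The authors deposited log2 values per transcript (33027 transcripts, 16 value columns), taken from their range as log2(normalized abundance + 1). What r1 and r2 stand for is not given in the sources used here. The 2 columns were averaged, turned linear, summed per gene and expressed as log2(value + 1), a scale that understates changes of low genes. The low-value filter kept 13783 genes and left out 795. No value column was left without a library.

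In every transcript, mdx 2 and mdx sln+/- 2 together average to the same value as the other 4 mdx and mdx sln+/- libraries (largest difference 5.12e-05, while other contrasts of this kind have an SD of 0.127 to 0.199). That term was fitted beside the genotype with limma 3.58.1 (R 4.3.3, prior following mean expression, 4 residual degrees of freedom, Benjamini-Hochberg threshold 0.05). The fit was tested on simulated data.

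Levels in every library are given for genes called in any comparison, for the gene of each complex with the smallest p in mdx against WT, and for isoform pairs; other members are given by range. Genes of 4 other lists are named where called in mdx against WT, and only in part where called in mdx sln+/- against WT. Ndufaf1, Sdha, Cox5b, Atp5e, Esrra, Esrrb, Esrrg, Gabpa, Nrf1, Tfam, Coq4, Coq8a and the printed promoters were chosen after their values were seen. The members and lists were chosen with earlier results of these data known. Markers of 9 cell types were read. Adipocyte markers were measured in 0 of 4 cases and skeletal muscle markers in 2 of 9, with 0 called. Endothelial markers rose in 2 and fell in 1 of 8 cases in mdx, and 0 of 5 blood markers passed. Of 6 listed atrial markers 3 were tested, and 2 rose in mdx. The remaining atrial marker, Stard10, went the other way by -0.83 and did not pass. Over all genes 8.15% passed as higher and 6.94% as lower in mdx. Python 3.11.15 with pandas 2.3.3, numpy 2.4.6, scipy 1.17.1 and matplotlib 3.10.9 was used. Alternatives tried are given in the closing section.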

Additional observations from a re-analysis of the deposited data

How the results depend on the processing

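Counts of respiratory chain genes called, 6 in mdx against WT and 12 in mdx sln+/- against WT, were 14 and 24 with the genotype only in the model, 2 and 11 with the style of the library names in place of the removed term, 4 and 24 with only the libraries compared, 2 and 6 with the r2 columns alone, 0 and 0 without WT 2 and mdx sln+/- 3, 4 and 7 with a constant prior, and 1 and 0 with library-sum scaling, an alternative chosen after seeing the data. As to name style, an index is part of the name in libraries 1 and 2 of either dystrophin-deficient group, but not in WT. Name style and genotype are thus partly confounded in each comparison with WT, and the fit cannot fully separate them. Taken by transcript, 10 genes had a called transcript in mdx against WT. With 1 library left out, the counts ranged from 0 to 4 and from 0 to 20. Over 23 alternatives per gene, single calls were lost in 4 (Uqcr10) to 16 (Ndufb7) in mdx against WT and in 3 (Uqcr10) to 14 (Atp5g1) in mdx sln+/- against WT. Between mdx sln+/- and mdx the count was 0 under every alternative run. The replicate block gave 7, 0 and 12 calls. The correlation of deviations was -0.26 for mdx 1 with mdx sln+/- 1 and 0.15 for WT 1 with mdx 1. Because of the removed term, deviations in mdx 2 must be opposite to those in mdx sln+/- 2. Such correlations thus cannot show whether library numbers pair the samples. Numbers of genes above 0 stayed within 1.5 times of 55, 81 and 77 under all alternatives run; with 1 library left out they ranged from 43 to 70, 77 to 82 and 69 to 78. Uqcrh reversed with the r2 columns (0.15 in mdx against WT). The cause was not tested. Precision rests on 2 or 3 libraries a group. Among the fits by gene, the share of all genes called is given only for the main fit and library-sum scaling. Counts under the other fits thus do not show whether a change was particular to the respiratory chain.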
